A study of Coprinopsis cinerea AmutBmut pab1-1 with 7 samples.

Results

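The 200 well-expressed genes of Coprinopsis cinerea whose transcript levels varied least over 7 Quant-Seq libraries are described here. Genes were kept when their deposited value was 100 CPM or more in each library, which 1020 of 14242 gene models met. CPM here are counts over library totals, each total scaled by a factor per library (TMM). The highest of the 7 values was divided by the lowest, and the 200 genes with the smallest ratio were taken as members. The other 820 genes at the minimum serve as the comparison. Because the same 7 values chose the members, their levels, ratios and differences between strains are descriptions and were not tested as evidence of steadiness.

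The libraries came from vegetative mycelium of C. cinerea AmutBmut pab1-1, a homokaryotic strain, and of mutants made from it. The parent strain, called wild type here, needs para-aminobenzoic acid. There were 2 libraries labelled Δcre1-43, 2 labelled Δcre1-91 and 3 of the wild type. Each mutant label stands for a single transformant in which the pab1 marker gene was placed at the cre1 locus. The study notes that a small cre1 fragment could still be amplified from the DNA of both. Since pab1 was the selection marker, the mutants differ from the wild type in pab1 as well as at cre1. These differences cannot be told apart here. All strains were grown for 84 h at 28°C in the dark on YMG medium with 0.2% glucose, overlaid with cellophane. The labels do not say whether libraries of a strain came from separate cultures, so the spread between them may be technical.

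Genes whose transcript level stays even across conditions are often called housekeeping genes, and they are used as reference genes in quantitative PCR. Ribosomal proteins, translation factors, actin, tubulin and glyceraldehyde 3-phosphate dehydrogenase (GAPDH) are the families most often chosen. Cre1 is the transcription factor of carbon catabolite repression in fungi, by which glucose keeps genes for the use of other carbon sources at a low level. Quant-Seq reads the 3′ end of polyadenylated transcripts, so a gene's count rests on reads near its 3′ end and is not divided by gene length.

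Assigned counts ran from 6232853 to 8514379 in the 4 mutant libraries and from 10196878 to 10784958 in the wild type. The cre1 gene had 8.72 and 8.16 CPM in the libraries labelled Δcre1-43, 8.51 and 6.26 CPM in those labelled Δcre1-91, and 8.73, 7.89 and 11.3 CPM in the wild type. In 3 of the 4 mutant libraries it lay within the range of the wild type. These values rest on 49 to 69 reads per mutant library. Reads were assigned to coding sequence plus a 3′ overhang, and which part gave these reads was not tested. The mutants are named by their labels throughout. The members took 11.4% to 13.0% of the counts of each library.

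The ratio of the highest to the lowest library ran from 1.09 to 1.36 over the members, with a median of 1.28. Over the other genes at the minimum it ran from 1.36 to 13.9, with a median of 1.68. At the edge of the set the ratios were nearly equal. The last members were proteins 462840, 412005 and 56681 (ratios 1.354, 1.354 and 1.357), and the first genes left out were 434504, 464188 and 417746 (1.357 for each). The set has no gap at its border.

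The steadiest gene was protein 385868, on scaffold 3 from 129657 to 130824 on the reverse strand, with 2 coding exons. It had 1101 and 1130 CPM under the label Δcre1-43, 1129 and 1190 under Δcre1-91, and 1092, 1159 and 1140 in the wild type. Its highest library was 1.09 times its lowest, and the 3 strains overlapped. Protein 441325 (scaffold 194, 24461 to 25467, reverse strand) followed, with 1154 and 1131 CPM under Δcre1-43, 1092 and 1174 under Δcre1-91, and 1071, 1143 and 1153 in the wild type. Protein 464597 (scaffold 170, 42816 to 43705, forward strand) lay at a lower level, with 386 and 403 CPM under Δcre1-43, 416 and 389 under Δcre1-91, and 373, 397 and 393 in the wild type. In all 3 of these genes the lowest library was wild-type replicate 1 and the highest was a library labelled Δcre1-91.

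Protein 456295 lies on scaffold 3 as well, at 136475 to 137372 on the forward strand. It had 738 and 758 CPM under Δcre1-43, 766 and 790 under Δcre1-91, and 742, 824 and 791 in the wild type. Protein 438660 (scaffold 13) was the least abundant of the leading 10, with 191 and 212 CPM under Δcre1-43, 195 and 214 under Δcre1-91, and 209, 215 and 210 in the wild type. Protein 493132 (scaffold 3) had 613 and 639.7 CPM under Δcre1-43, 639 and 611 under Δcre1-91, and 569.9, 635 and 583 in the wild type. Here the range within the wild type spanned most of the range of the gene.

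Protein 185637, at rank 8, was the only one of the leading 10 with a description at hand, an extracellular membrane protein with a CFEM domain, a cysteine-rich domain of fungal surface proteins. It had 1824 and 1975 CPM under Δcre1-43, 1906 and 1804 under Δcre1-91, and 1958, 2049 and 2076 in the wild type. It is also the most abundant of these 10. The ranks between and after it were held by 435813 (290.9 to 328 CPM over the 7 libraries), 439591 (463 to 535 CPM) and 545020 (193 to 223 CPM). Of these, 439591 has a single coding exon of 1053 bp. All 10 stayed in the set when any library was left out and under each of 3 other scalings.

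**Figure D1:**
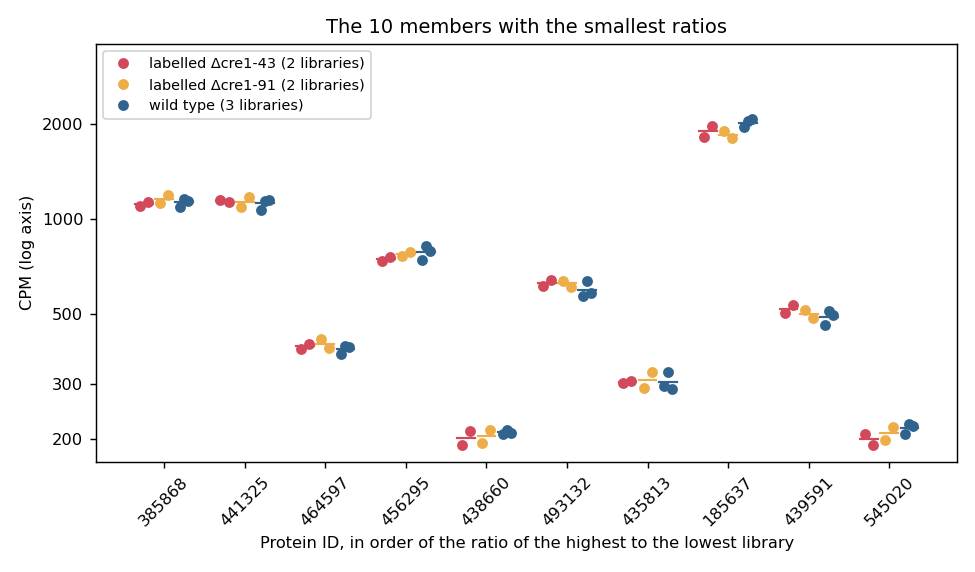
CPM of the 10 members with the smallest ratios in each library, on a log axis, with the libraries labelled Δcre1-43, those labelled Δcre1-91 and the wild type side by side and a line at each strain's mean. Every gene keeps its level across the strains, and the levels of the genes range from about 200 to 2000 CPM.

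The members covered most of the range of levels above the minimum. Their mean level over the 7 libraries ran from 111 to 7506 CPM, with a median of 329, against 117 to 25075 CPM and a median of 288 for the other genes. Steady genes were not concentrated at one level. They made up 20.5% of genes with a mean of 100 to 200 CPM, 16.0% from 200 to 400, 20% from 400 to 800, 26.2% from 800 to 1600 and 19.0% of 1600 CPM or more. No member averaged more than 7506 CPM, while 434504, the gene just outside the set, averaged 8633 CPM.

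The most abundant member, protein 443707 (scaffold 268), has 1 coding exon of 309 bp and no description at hand. It had 6534 and 7092 CPM under Δcre1-43, 6506 and 7826 under Δcre1-91, and 8268, 8351 and 7965 in the wild type. All wild-type values lay above the 4 mutant values. Protein 235665 (scaffold 6) had 6170.0 and 6831 CPM under Δcre1-43, 7585 and 7629.5 under Δcre1-91, and 6818, 6537 and 6215 in the wild type, so that only the Δcre1-91 libraries stood above the rest. Protein 501712 (scaffold 236) had 3025 and 3280.2 CPM under Δcre1-43, 2849 and 2931 under Δcre1-91, and 3529, 3455 and 3585 in the wild type, again with all wild-type libraries highest. Next came 161813, a subunit of translation elongation factor 1, and 433064, which averaged 2315 CPM.

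The members with the lowest means lay just above the minimum. Protein 357551 is a membrane-bound AAA protease of the FtsH type, which in other eukaryotes acts in mitochondrial protein quality control. It had 108 and 122 CPM under Δcre1-43, 116 and 119 under Δcre1-91, and 109, 103 and 102 in the wild type. Protein 118369, a mitochondrial ribosomal protein of the L27/L41 family, had 107 and 119 CPM under Δcre1-43, 105 and 109 under Δcre1-91, and 122, 121 and 132 in the wild type. Proteins 439741, 445794 and 445843 averaged 116, 117 and 117 CPM.

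**Figure D2:**
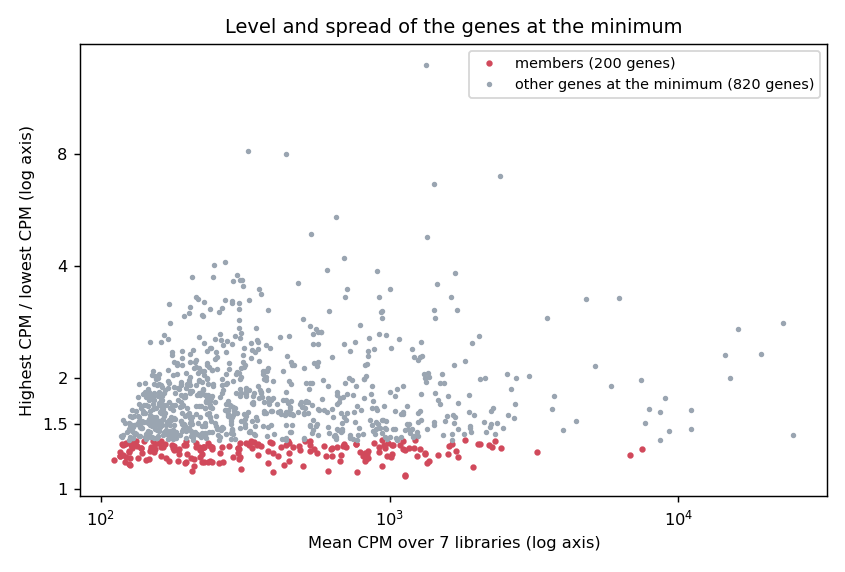
Ratio of the highest to the lowest library against mean CPM, both on log axes, for the 200 members and the 820 other genes at the minimum. The members form the lowest band at levels up to 7506 CPM, with no gap to the genes above them.

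Even these genes varied by more than read counting gives. The coefficient of variation over the 7 libraries had a median of 8.68% in members and 19.5% in the other genes. Counting error alone would give a median of 2.20% for members in their shallowest library, where the lowest count of any member was 710. Variance over the libraries divided by that of counting, as chi-square per degree of freedom, had a median of 19.8 in members and 117 in the other genes. It was lowest for 438660 (3.19), 547195 (3.46) and 363154 (3.94), the last a mitochondrial solute carrier. These genes averaged 207, 126 and 125 CPM, and the measure was larger at higher levels. Its median in members was 10.2 at a mean of 100 to 200 CPM and 185 at 1600 CPM or more. Reads without molecular identifiers are not independent molecules, so these figures cover counting error only.

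The spread within a strain was also smaller in members. The pooled standard deviation of log2 CPM within strains had a median of 0.10 in members and 0.16 in the other genes. The highest strain mean was a median of 1.13 times the lowest in members and 1.42 times in the others. Both measures were bounded by the rule through the same 7 values.

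The 7 libraries did not contribute evenly to the extremes. The first library labelled Δcre1-43 was the lowest of the 7 in 53 members and the highest in 12, and its median log2 distance from the members' means was -0.07. It was also the library with the fewest assigned counts, and in the other genes its median distance was -0.19. The second library labelled Δcre1-91 was highest in 44 members, and wild-type replicate 2 in 41. The part of depth and of scaling in these counts was not tested. With that first library left out of the rule, 154 of the 200 members were chosen again, and their set had a median coding length of 688.5 bp, against 898.5 bp for the other genes.

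The rule was also applied to 6 libraries at a time, and the chosen 200 genes were read in the library left out. The 6 always held at least 1 other library of the same strain. The distance of that library from the mean of the 6 on the log2 scale had a median of 0.15 for the chosen genes with the first library labelled Δcre1-43 left out, against 0.27 for the other genes at the minimum in the 6. With the second it was 0.12 against 0.19. For the libraries labelled Δcre1-91 the medians were 0.15 and 0.15 for the chosen genes, against 0.23 and 0.27 for the others. For the wild type they were 0.11, 0.14 and 0.099 for the chosen genes and 0.27, 0.26 and 0.26 for the others.

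In each of the 7 cases the chosen genes were nearer to the mean of the 6, and between 71.0% and 89.5% of them lay within 0.25 log2 units, against 44.8% to 61.0% of the other genes. The chosen genes were not free of exceptions. With the second Δcre1-91 library left out, 1 of them deviated by 1.07 log2 units. Genes are not independent replicates and the scaling was set on all 7 libraries, so these values carry no test. Because libraries of the same strain helped choose the genes, the left-out value is not independent of the choice. It does not measure steadiness across strains.

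**Figure D3:**
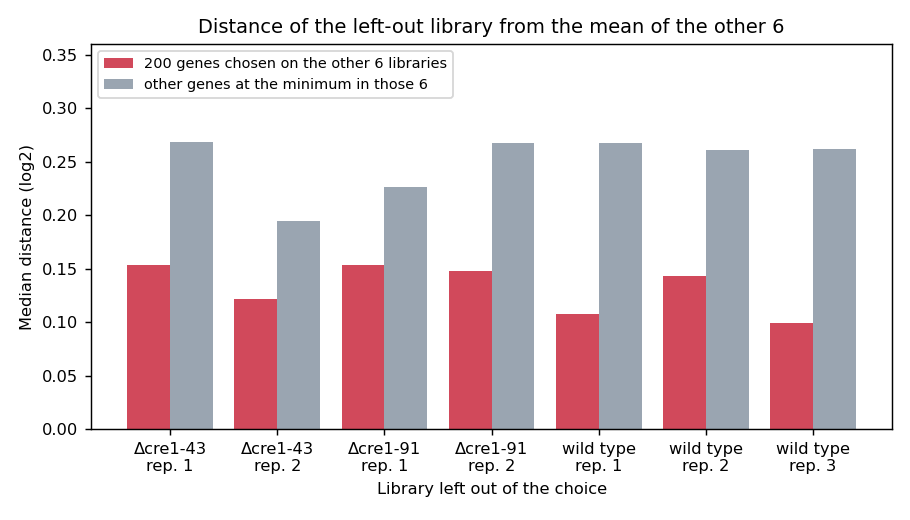
Median distance in log2 units of each library from the mean of the other 6, for 200 genes chosen on those 6 and for the remaining genes at the minimum. The bars of the chosen genes are the lower ones for all 7 libraries, from 0.099 to 0.15 against 0.19 to 0.27.

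The members were not called by the test of differences between strains. The quasi-likelihood test of edgeR, with P adjusted by Benjamini-Hochberg across the whole table, was read at an adjusted P of at most 0.05 and at least 2-fold. It called 0 members for Δcre1-43 against the wild type, where 6.97% of all genes were called, 0 for Δcre1-91 against the wild type (8.32% of all genes) and 0 for Δcre1-43 against Δcre1-91 (0.246%). The rule capped the differences between the same 7 values, so nothing is read from the zeros. At an unadjusted P under 0.05 the same test counted 17, 8 and 4 members in that order, against 26.9%, 28.7% and 11.2% of all genes. Limma voom and DESeq2 called 0 members as well, with 43, 35 and 27 at an unadjusted P under 0.05 in voom (29.4%, 30.6% and 13.3% of all genes) and 17, 6 and 4 in DESeq2 (23.4%, 25% and 8.47% of all genes). Between Δcre1-43 and Δcre1-91 voom called 0 of all 14242 genes, so its count for members there carries no information. The comparisons share their wild-type or mutant libraries.

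The log2 fold changes of members ran from -0.37 to 0.34 for Δcre1-43 against the wild type, from -0.33 to 0.34 for Δcre1-91 against the wild type, and from -0.33 to 0.34 for Δcre1-43 against Δcre1-91. Their standard errors had medians of 0.15, 0.15 and 0.16. The choice of members fixes this narrow range.

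The total of members whose strains did not overlap is given as a description of the same 7 values. It was near or below the share over all genes, except between Δcre1-43 and Δcre1-91. In each comparison it was below that of genes at the minimum. Split by direction, the share of members lower under Δcre1-43 exceeded that of all genes against both other strains. It was below that of the other genes at the minimum (43.7% against the wild type, 35% against Δcre1-91). For Δcre1-43 the values of both strains did not overlap in 80 members (40%), where 42.2% of all genes and 60.9% of genes at the minimum did not overlap. Of these, 22 were higher than the wild type (11% of members, against 21.9% of all genes) and 58 lower (29%, against 20.3%). For Δcre1-91 the count was 78 (39%), against 44.3% of all genes and 63.4% of genes at the minimum. Of these, 37 were higher (18.5% of members, against 22.3% of all genes) and 41 lower (20.5%, against 22%). Between Δcre1-43 and Δcre1-91 the count was 84 (42%), against 34.4% of all genes and 47.8% of genes at the minimum. Under the first label 23 were higher (11.5% of members, against 17.4% of all genes) and 61 lower (30.5%, against 17%). The median member had a log2 fold change of -0.06 for Δcre1-43 against the wild type, 0.01 for Δcre1-91 against the wild type and -0.06 for Δcre1-43 against Δcre1-91. These directions depend on the scaling. By library size alone the medians were -0.03, -0.07 and 0.06, and the members that did not overlap were 39 higher and 53 lower for Δcre1-43 against the wild type, 14 higher and 69 lower for Δcre1-91 against the wild type, and 63 higher and 18 lower for Δcre1-43 against Δcre1-91. Which strain is higher in a single member is therefore stated on the TMM scale only.

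The members nearest to a call for Δcre1-43 were 479897, 426937 and 453947. The rule capped the differences of members on the same values, so their P-values here and below are descriptions only. Protein 479897 had 957 and 966 CPM under Δcre1-43, 1073 and 1044 under Δcre1-91, and 1179, 1257 and 1289 in the wild type. Its log2 fold change for Δcre1-43 was -0.37 (standard error 0.13, edgeR adjusted P = 0.0535). Protein 426937 had 925 and 908 CPM under Δcre1-43, 1120.1 and 1168 under Δcre1-91, and 1129, 1191 and 1198 in the wild type. Only the Δcre1-43 libraries stood apart, and it was also among the 3 members nearest to a call between the mutants (log2 fold change -0.32). Protein 453947 had 648 and 674 CPM under Δcre1-43, 728 and 777 under Δcre1-91, and 835, 861 and 824 in the wild type. In it, as in 479897, both mutant labels lay below every wild-type library.

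For Δcre1-91 the nearest were 496212, 501712 and 365785. Protein 496212 had 1456 and 1533 CPM under Δcre1-43, 1451 and 1416 under Δcre1-91, and 1814, 1852 and 1727 in the wild type. Its log2 fold change for Δcre1-91 was -0.33 (standard error 0.12, edgeR adjusted P = 0.0684), and both mutant labels lay below every wild-type library. Protein 365785, a RING zinc finger protein, had 602 and 707 CPM under Δcre1-43, 711 and 703 under Δcre1-91, and 566.0, 554.98 and 555.2 in the wild type. Both mutant labels lay above every wild-type library. Between Δcre1-43 and Δcre1-91 the other nearest members were 462840 and 465651, with log2 fold changes of -0.33 and -0.30 and edgeR adjusted P of 0.346 and 0.374.

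Functional descriptions were at hand for 40 of the 200 members, since only part of the InterPro descriptions of the study was used here. Of 181 described genes at the minimum these 40 are 22.1%, and of all genes at the minimum the members are 19.6%. The lists that follow were built from these words, and the members of each are read beside the list's other genes at the minimum.

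Ribosomal proteins gave 6 members among 10 described genes at the minimum. Protein 367451, of the L10P family that forms the stalk of the large subunit, stood at rank 11 with 866 and 921 CPM under Δcre1-43, 995 and 1003 under Δcre1-91, and 928, 967 and 891 in the wild type. Protein 130885 (L5 family) had 820.3 and 851 CPM under Δcre1-43, 801 and 922 under Δcre1-91, and 761, 886 and 833 in the wild type. The small-subunit protein 165767 (S10 domain family) had 1409.6 and 1365 CPM under Δcre1-43, 1281 and 1451 under Δcre1-91, and 1164, 1397 and 1196 in the wild type. In 130885 and 165767 the strains overlapped, while in 367451 both Δcre1-91 libraries lay above the rest.

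The remaining ribosomal members were 118369, described above, 276340 (40S protein S10) and 329287 (S26e). Protein 329287 had 2005 and 1882 CPM under Δcre1-43, 2281 and 2161 under Δcre1-91, and 2253, 2462 and 2480.4 in the wild type, with Δcre1-43 lowest. The 4 ribosomal genes that were not members had ratios from 1.41 for 366589 (L4) to 1.87 for 151260 (L7A), with 356089 (L35A) and 16780 (L7/L12) between them. Protein 16780 had 114 and 135 CPM under Δcre1-43, 118 and 116 under Δcre1-91, and 197.8, 197 and 188 in the wild type. All its wild-type values were above those of the mutants.

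Translation factors gave 2 members of 3. Protein 194805 carries the domains of initiation factor 4G, the scaffold that brings mRNA to the ribosome, and had 179 and 202.9 CPM under Δcre1-43, 214 and 217 under Δcre1-91, and 215, 214 and 196 in the wild type. Protein 161813, the nucleotide exchange subunit of elongation factor 1, had 2086 and 2348 CPM under Δcre1-43, 2502 and 2632 under Δcre1-91, and 2688, 2077 and 2689 in the wild type. Its lowest value lay within the wild type.

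Complexes of the mitochondrial inner membrane and the vacuolar proton pump gave 4 members of 7. Protein 191711 (delta/epsilon subunit of the F1 ATP synthase) had 615 and 619 CPM under Δcre1-43, 715 and 706 under Δcre1-91, and 653, 731 and 666 in the wild type. Protein 356712, a subunit of NADH-ubiquinone oxidoreductase, had 234 and 230.2 CPM under Δcre1-43, 249 and 259.8 under Δcre1-91, and 218, 236 and 241 in the wild type. The Δcre1-91 libraries were the highest in that gene. The other members were 361144, the catalytic A subunit of the V-ATPase (162 to 202 CPM over the 7 libraries), and 119721, subunit 10 of the cytochrome bc1 complex (292 to 384 CPM).

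The proteasome and ubiquitin system gave 4 members of 11. They were the RING protein 365785, the proteasome subunits 11074 (alpha 4, ratio 1.32) and 282044 (beta 3, ratio 1.35), and 10452, the SKP1 adaptor of ubiquitin ligases (ratio 1.33). Proteins of RNA processing gave 2 of 8, the LSM domain protein 184391 (215 to 256 CPM) and 359499, the Sm protein F of spliceosomal particles (135 to 181 CPM). In 359499 the wild type was lowest, at 135, 143 and 147 CPM, against 181 and 179 under Δcre1-43 and 158 and 173 under Δcre1-91. Vesicle traffic gave 1 of 4, the small GTPase 361706 of the ARF6 type.

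Some described genes of families that serve as reference genes were at the minimum but not members. Whether other genes of these families are among the 160 undescribed members is not known from the descriptions at hand. GAPDH was represented by 264276, with 1619 and 2114 CPM under Δcre1-43, 3296 and 2967 under Δcre1-91, and 1398, 1274 and 1640.1 in the wild type, a ratio of 2.59. The alpha-tubulins 176636 and 359665 had ratios of 1.90 and 2.65. Protein 359665 had 313 and 531 CPM under Δcre1-43, 519 and 342 under Δcre1-91, and 693, 741 and 831 in the wild type, so that all wild-type values were above the mutants. Histones H2B (361866) and H4 (320458) had ratios of 1.43 and 2.35. The cyclophilin 27441 missed the set narrowly, at rank 207 with a ratio of 1.36.

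Of 8 genes for actin-binding proteins, Arp2/3 subunits, septins and tubulins, 2 were members. Protein 192562 is subunit 4 of the Arp2/3 complex, which nucleates actin filaments. It had 159 and 162 CPM under Δcre1-43, 127 and 125 under Δcre1-91, and 133, 131 and 130.1 in the wild type, with Δcre1-43 above all others. Another subunit of the same complex, 114966 (subunit 5), had a ratio of 2.505 and was no member. The septin 367587 had 204 and 232 CPM under Δcre1-43, 201 and 199.8 under Δcre1-91, and 240.4, 254 and 259.8 in the wild type. Chaperones gave 0 of 2 genes, protein kinases and phosphatases 0 of 4, and DNA-binding transcription factors 0 of 1.

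Glycoside hydrolases and major facilitator transporters are families with genes that the study reports as changed in the mutants. They were also represented, as was 1 cytochrome P450 gene. Protein 365456, with a glycosyl hydrolase catalytic domain of unknown function, had 1450.4 and 1592 CPM under Δcre1-43, 1709 and 1460.1 under Δcre1-91, and 1621, 1919 and 1735 in the wild type. The cytochrome P450 gene 119480 had 282 and 265 CPM under Δcre1-43, 287 and 297 under Δcre1-91, and 296, 341 and 352 in the wild type. The transporter 153500 of the major facilitator superfamily had 155 and 164 CPM under Δcre1-43, 155 and 154 under Δcre1-91, and 187, 185 and 175 in the wild type, all wild-type values being higher. These are 1 of 3 glycoside hydrolases, 1 of 1 P450 gene and 1 of 6 transporters at the minimum.

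The remaining 16 described members belonged to no list. They include the mitochondrial carrier 363154 (119 to 138 CPM), the Golgi membrane protein 357462 (347 to 408 CPM) and 364818, a MIC26-type subunit of the complex that shapes mitochondrial cristae (131 to 158 CPM). Enzymes among them were 370862, with the NodB domain of polysaccharide deacetylases, the adenosine kinase 367430, and 160139, a pyridoxal phosphate-dependent enzyme of cysteine and methionine metabolism. Protein 370862 had 374 and 378 CPM under Δcre1-43, 402 and 393 under Δcre1-91, and 448, 462 and 428 in the wild type. A G protein gamma subunit (360474) and an ATPase of the ArsA/GET3 type (116852), a family that delivers tail-anchored proteins to membranes, were members at ranks 192 and 163.

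Gene structure was not used by the rule. The coding sequence of the members had a median length of 616.5 bp, against 934.5 bp for the other genes at the minimum and 1056 bp for all 14242 gene models. A coding length under 500 bp was found in 38.0% of members, 22.4% of the other genes and 19.8% of all models. Over 2000 bp it was 6%, 11.95% and 17.1%. The share of members among genes at the minimum was 29.2% for coding lengths under 500 bp, 20.9% from 500 to 1000 bp, 13.4% from 1000 to 2000 bp and 10.9% from 2000 bp.

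The difference in length was found at every level of expression. Members with a mean of 100 to 200 CPM had a median coding length of 786 bp, against 1113 bp for the other genes of that level. From 200 to 400 CPM the medians were 630.0 bp for members and 1002 bp for the others. From 400 to 800 CPM they were 492 bp for members and 784.5 bp for the others, and from 800 to 1600 CPM 498 bp for members and 696 bp for the others. At 1600 CPM or more they were 492 bp for members and 660.0 bp for the others. These medians are over genes, which are not replicates, and no test was made. When the rule was applied with no minimum, the chosen genes had a median of 1041 bp, against 1218 bp for the remaining genes. The size of the difference also depended on the scaling. With library size alone the medians were 772.5 bp for the chosen genes and 877.5 bp for the others.

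Members had a median of 4.5 coding exons and a mean of 5.15, the other genes 5 and 6.11, and all models 4 and 5.30. Genes with 3 to 5 coding exons were 55.0% of members, 42.3% of the other genes and 37.0% of all models. A single coding exon was found in 2.50% of members, 5.37% of the other genes and 12.7% of all models, and 10 or more in 8.50%, 16.2% and 14.0%. Introns were of ordinary size, with medians of 56.5 bp in members, 57 bp in the other genes and 57 bp in all models. The last coding exon, which leads into the counted 3′ overhang, had a median of 107.5 bp in members, 158 bp in the other genes and 242 bp in all models.

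**Figure D4:**
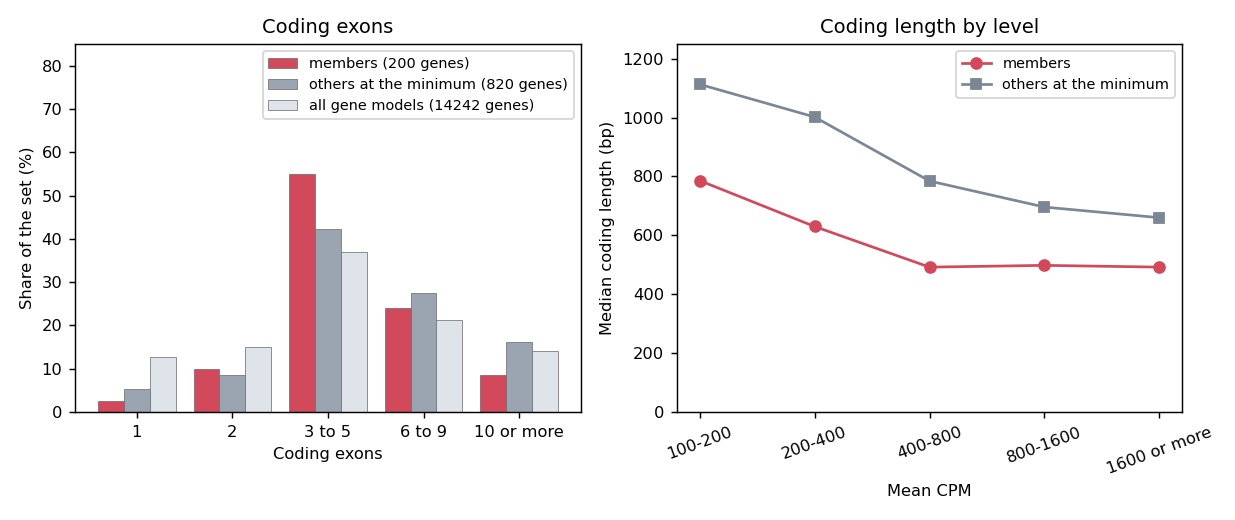
Left, share of genes by number of coding exons in members, other genes at the minimum and all gene models; right, median coding length in bp by mean CPM for members and the other genes. Members are shifted toward 3 to 5 coding exons (55.0% against 42.3%), and their coding sequences are shorter in all 5 ranges of level.

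Single genes show how wide the range was. Protein 436858 (scaffold 1) has 21 coding exons over 3204 bp and stood at rank 197 with 112 to 151 CPM. Protein 497575 (scaffold 63) has 16 coding exons in only 837 bp and stood at rank 93. The transporter 153500 has 12, as do 389921 and 498988. The longest coding sequences were those of 385941 (4290 bp, ratio 1.34), 547195 (4272 bp, ratio 1.17) and 494656 (4218 bp, ratio 1.27). The shortest were those of 447575 (156 bp), 398594 (171 bp) and 474214 (171 bp).

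Protein 547195, the second longest of these, was among the steadiest, at rank 13. It had 124 and 118 CPM under Δcre1-43, 131 and 127 under Δcre1-91, and 138, 120.1 and 126 in the wild type. Protein 398594, with a coding sequence of 171 bp, had 1354 and 1252 CPM under Δcre1-43, 1341 and 1335 under Δcre1-91, and 1409.5, 1492 and 1437 in the wild type. Short and long genes thus occur among the steadiest members.

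Of the 5 members with 1 coding exon, the most abundant were 443707, 456700 and 453947. Protein 456700 (scaffold 315, coding length 324 bp) had 1169 and 1276 CPM under Δcre1-43, 1089 and 1262 under Δcre1-91, and 1339.7, 1277 and 1296 in the wild type.

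The gene models carry a 3′ overhang of 400 bp, which was present in all 200 members. With it, 58.5% of members overlapped another model, against 56.8% of the other genes and 59.5% of all models. An overlap with a model on the opposite strand was found for 35.5% of members, 37.4% of the other genes and 37.8% of all models. How the strand was treated in counting is not given in the sources used here, so reads of such neighbours may not be told apart. A count that was not whole in at least 1 library was found in 180 members and in 753 of the other 820 genes. The coding spans themselves overlapped another coding span in 3 members (11299, 539558 and 462840), and in 1 of the other genes.

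The members were spread over the assembly. They lay on 111 scaffolds, of 305 that hold a gene at the minimum and 884 that hold a gene model. Of these 111 scaffolds, 73 held 1 member, 20 held 2 and 18 held 3 or more. Members used the forward strand in 48.0% of cases and the other genes in 50%.

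Scaffold 3 held the most, 13 members of 37 genes at the minimum, and 3 of the leading 6 genes lie on it. Scaffold 15 held 8 members of 14 and scaffold 4 held 8 of 17, while scaffold 2 held 1 of 23 and scaffold 16 held 5 of 27. On scaffold 63 all 4 genes at the minimum were members. Over the 20 scaffolds with 10 or more genes at the minimum, the share of members ran from 4.35% to 57.1%. The 21 scaffolds with 100 or more gene models held 36% of members, 27.7% of the other genes and 22.4% of all models. Members lay a median of 31516 bp from the outermost gene model of their scaffold, the other genes 25720.5 bp and all models 17986 bp.

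**Figure D5:**
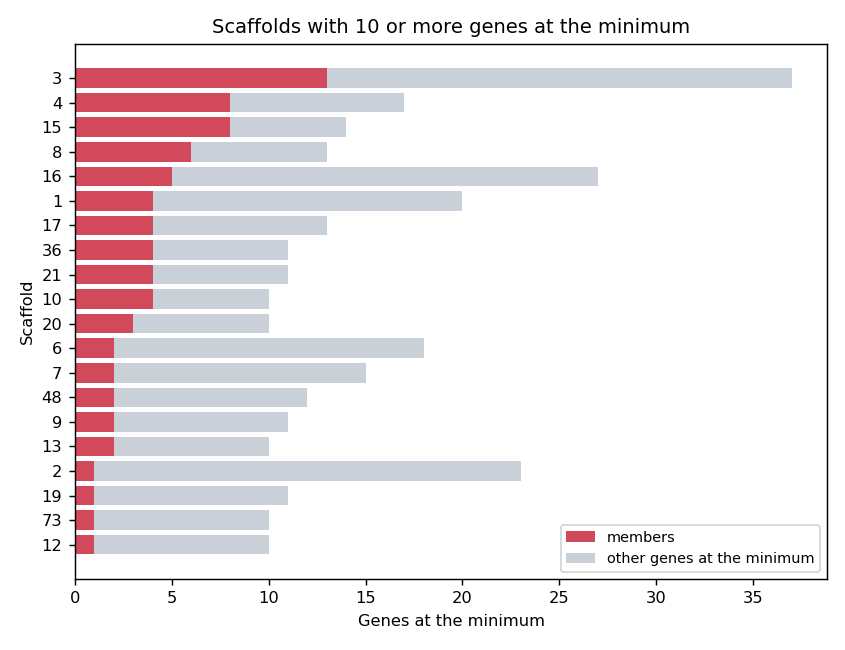
Members and other genes at the minimum on the 20 scaffolds with 10 or more such genes, as stacked counts. Scaffold 3 has 13 members of 37 genes, scaffold 15 has 8 of 14 and scaffold 2 has 1 of 23.

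No run of 3 neighbouring members was found. Among 102 pairs of neighbouring genes at the minimum there were 6 pairs in which both genes were members, 4 transcribed away from each other, 2 in the same direction and 0 toward each other. In all, 12 members (6%) stood next to another member. Members are 19.6% of genes at the minimum, and whether 6 pairs is more or fewer than that share gives was not tested. That share was 3% when the first library labelled Δcre1-91 was left out of the rule, and 0% among the 100 smallest ratios. With the overhang counted, the closest pair was 493874 and 450091 on scaffold 8, both on the reverse strand and separated by 54 bp. Their coding sequences lay 454 bp apart, a wider gap than in the 4 divergent pairs. The divergent pairs 497565 and 471638 on scaffold 63 and 401749 and 372371 on scaffold 122 were separated by 205 and 219 bp.

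Levels within these pairs were unequal. Protein 497565 averaged 1128 CPM over the 7 libraries and its neighbour 471638 averaged 138 CPM, while 401749 and 372371 averaged 1024 and 838 CPM. The pair 493874 and 450091 averaged 532 and 350.4 CPM.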

How the data were processed

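Quant-Seq 3′ libraries were made from vegetative mycelium of 7 samples. The authors trimmed reads with bbduk, mapped them with STAR 2.6.1a to the AmutBmut genome and assigned them with featureCounts to coding sequences plus a 400-bp 3′ overhang. The deposited table holds estimated counts, of which 20.3% are not whole, and these were rounded before tests. The deposited signal table equals these counts over library totals scaled by TMM (largest relative difference 1.2e-14) and is called CPM. Libraries hold 6232853 to 10784958 assigned counts. Positions follow the deposited models and start at 1. Descriptions come from the study's InterPro list, of which 1999 genes were at hand.

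The design had been laid out for whole counts. edgeR 4.0.16 in R 4.3.3 (TMM, glmQLFit, glmQLFTest) was fitted to all 14242 genes and 7 libraries with a coefficient per strain. Limma 3.58.1 (voom), DESeq2 1.42.0, other scalings, a filter, a replicate block, omission of each library, other minimums and other set sizes were alternatives. The scripts were tested on simulated data. The reading of a left-out library, the ranges of level and the overlap of strains by library size alone were added after seeing the data. Members and gene lists were chosen with earlier results of these data known. Named genes are the 10 smallest ratios, 5 highest and 5 lowest means, ranks 198 to 203, extremes of structure, closest pairs, list members and the 3 smallest P in each comparison. Of the 16 described members in no list, those named were chosen after their values were seen. P-values measure the spread between these samples, which may be technical.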

Additional observations from a re-analysis of the deposited data

How the results depend on the processing

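Called members stayed at 0 with each scaling, filterByExpr, limma voom, DESeq2, only the groups compared, no fold limit, and each wild-type library left out. The rule used the same values, so nothing is read from these zeros. Over all genes, those of these fits with the fold limit called 861 to 1031 for Δcre1-43 against the wild type. For Δcre1-91 against the wild type they called 1039 to 1239. The replicate block by the labels' numbers gave 0 members in each comparison. Deviations of same-numbered libraries correlated at -0.40 between the mutants and at -0.08 to 0.15 between a mutant and the wild type. With 2 libraries per mutant the deviations mirror each other, so these values cannot decide whether the numbers pair the samples. The crossed pairing, chosen after seeing the data, also gave 0, with 147 calls over all genes between Δcre1-43 and Δcre1-91, against 53 with the block and 35 without it. Calls over all genes in that comparison were 106 by library size only, 72 in DESeq2, and 0 in voom and with filterByExpr, so the 0 members there carry no information. Without TMM scaling log2 fold changes move by 0.12 between Δcre1-43 and Δcre1-91, by -0.09 for Δcre1-91 against the wild type and by 0.03 for Δcre1-43 against the wild type, which turns the sign of the members' median in the first 2 of these.

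The member set depended more on the rule. Of the 200 genes, 117 were shared at a minimum of 50, 126 at 200, 69 with no minimum, 83 when only models without overlap were kept, 20 when only whole counts were kept (87 genes remained) and 100 by construction in the set of 100. Leaving out a library kept 153 to 182. Other scalings shared 148 to 194. The median coding length became 772.5 bp by library size only (others 877.5 bp), 721.5 bp at a minimum of 50 (others 1011 bp), 1041 bp with no minimum (others 1218 bp) and 822 bp with whole counts, and was 582 to 688.5 bp without each library. It was below that of the other genes in all alternatives that left other genes. Members next to a member were 3% with no minimum, 2% by strain means, 2% without overlapping models, 0% with whole counts, 0% in the set of 100, and 3% (without Δcre1-91 replicate 1) to 7% without a library. On long scaffolds they were 24.5% without overlapping models. The causes were not tested.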
